A study of Rattus norvegicus with 24 samples.

Results

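Fam111a was followed in peripheral blood across diets and LPS injection. It was chosen because it had led the comparison of LPS-G0 with C-G0 in an earlier look at these arrays, so the values of those 2 groups describe the choice and were not tested. It is 1 of 25885 gene names or identifiers on the array, and the rule took every probe that carries its symbol and is not a control, which gave 2 of 30367 probes. Blood RNA was measured on 24 two-color arrays, 4 in each of 6 groups, and the labels call the 4 arrays of a group biological replicates. All rats were male Sprague Dawley rats, 8 weeks old at the start and fed for 6 weeks. C-G0, C-G1 and C-G2 were injected with saline. The groups LPS-G0, LPS-G1 and LPS-G2 received tail vein injections, on 2 occasions, with E. coli lipopolysaccharide (LPS, a bacterial cell wall component that sets off inflammation) at 10 mg per kg of body weight. The G0 diet was semi-synthetic, the G1 diet held oat beta-glucan (a soluble fiber) of high molecular weight, and the G2 diet held that of low molecular weight. Every array also carried a common reference of pooled blood RNA, so a log2 ratio of 0 is the level of that pool. The labels describe it as drawn from all rats, whereas the methods say that it came from rats of each group that were not hybridized themselves. By the labels Cy3 marks the RNA of the rat and Cy5 that of the pool, whereas the methods of the study name the dyes the other way round. The labels were followed because the median SD within groups over 7074 probes was 0.38 in log2 Cy3 and 0.26 in log2 Cy5, and larger in Cy3 for 95.3% of them. For LPS-G0 replicates 3 and 4 the title says LPS while the label for induction says control, and they were kept as LPS-G0 by their titles.

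FAM111A is a chromatin-associated serine protease with a trypsin-like domain. It binds the sliding clamp PCNA at replication forks, where it helps to clear proteins that block the fork, and it restricts the growth of some DNA viruses. Mutations of the human gene cause Kenny-Caffey syndrome, a disorder of bone growth and calcium balance. In whole blood, more cells of a type and more RNA per cell cannot be told apart.

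Both probes are 60 bases long and were designed on the mRNA NM_001109163, on the plus strand of chromosome 1 of the rn4 assembly. The leading probe (A_64_P065265) lies at chr1:215596354-215596413, and the second probe (A_44_P304009) lies at chr1:215596377-215596436. They start at bases 2324 and 2347 of the mRNA and share 37 bases, so they read nearly the same stretch and are not independent measurements. Whether this stretch is coding or untranslated was not determined here. The first 30 bases of the leading probe and the last 30 of the second probe are printed to show what sets them apart, with the 23 bases that only 1 of them holds in capitals.
Leading probe, first 30 bases: TCATGGAAAAGAAAGAAGCCAACcacgttc
Second probe, last 30 bases: actcactCATTTGGTTCTACCCATATCTTC
None of the other array probes shared a run of 15 bases with either of them.

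Fam111a stood highest in LPS-injected rats on the diet without beta-glucan. On the leading probe, the log2 ratios of the 4 LPS-G0 arrays were 1.84, 1.77, 1.30 and 1.09 for replicates 1 to 4. The 4 C-G0 arrays gave -0.27, -0.15, 0.15 and -0.24. All LPS-G0 arrays exceeded those of the other 5 groups, the highest of which was at 0.89 (LPS-G1 replicate 1). Both arrays with conflicting labels, at 1.30 and 1.09, were the lower ones of LPS-G0 but lay above all 20 arrays of the other groups. Of 10676 probes compared in this way, 80 (0.749%) had all LPS-G0 arrays on top, a count that includes Fam111a, which had been chosen on these arrays.

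With high-molecular-weight beta-glucan the LPS-injected rats had intermediate values. The LPS-G1 arrays were at 0.89, 0.80, 0.16 and 0.15, and the C-G1 arrays were at -1.12, -0.15, -1.29 and -0.16. The ranges of these groups did not overlap, and C-G1 held both the lowest values of the series and a pair of arrays near the other controls. With low-molecular-weight beta-glucan the ranges did overlap. The LPS-G2 arrays were at 0.30, 0.78, -0.01 and -0.25, and the C-G2 arrays were at 0.25, -0.38, 0.02 and -0.81.

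**Figure D1:**
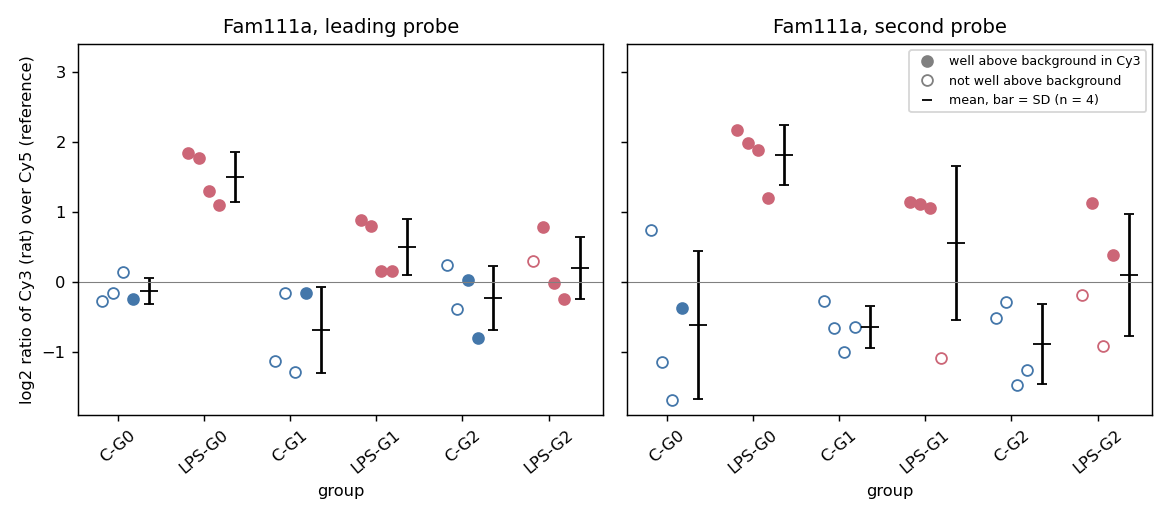
Log2 ratio of Cy3 (rat) over Cy5 (reference) for the leading (left) and second (right) Fam111a probe on each of 24 arrays by group, with the group mean and SD (n = 4). Filled points were well above background in Cy3 and open points were not. All 4 LPS-G0 arrays lie above all other arrays on both probes.

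Group means on the leading probe stood in the order C-G1 (-0.68 ± 0.61), C-G2 (-0.23 ± 0.46), C-G0 (-0.13 ± 0.19), LPS-G2 (0.21 ± 0.44), LPS-G1 (0.50 ± 0.40) and LPS-G0 (1.5 ± 0.36; SD, n = 4 each). The step from LPS-G1 to LPS-G0 was 1.00, or 2.33 times the pooled SD within groups (0.43), and was the only step between neighbors without overlap. The other steps were between 0.10 and 0.45, and each pair of neighbors overlapped. The 3 LPS groups took the 3 highest places on both probes.

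The second probe scattered more. Its log2 ratios were 2.17, 1.99, 1.89 and 1.19 in LPS-G0 and 0.74, -1.15, -1.68 and -0.37 in C-G0. They were 1.14, 1.11, 1.05 and -1.09 in LPS-G1 and -0.27, -0.66, -1.0 and -0.65 in C-G1. They were -0.18, 1.13, -0.92 and 0.38 in LPS-G2 and -0.52, -0.28, -1.48 and -1.25 in C-G2. LPS-G0 was again above all 20 other arrays, LPS-G1 replicate 4 lay below every C-G1 array, and the pooled SD was 0.78. The order of the control groups differed from that on the leading probe, with C-G2 lowest (-0.88 ± 0.57) and C-G0 (-0.61 ± 1.05) and C-G1 (-0.64 ± 0.30) within 0.03 of each other (SD, n = 4 each).

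Fam111a was a dim gene in blood. The mean processed Cy3 signal of the leading probe was 207 ± 26.0 for LPS-G0, 110 ± 26.1 for LPS-G1 and 84.2 ± 39.3 for LPS-G2, against 65.8 ± 17.1 for C-G0, 67.4 ± 41.5 for C-G1 and 69.2 ± 19.2 for C-G2 (SD, n = 4 each). The reference signal in Cy5 had group means between 69.5 and 96.4, and the 3 LPS groups had the 3 highest means in Cy3 alone as well. The lowest and highest signals in C-G1, on replicates 1 and 2, were 29.2 and 121.

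**Figure D2:**
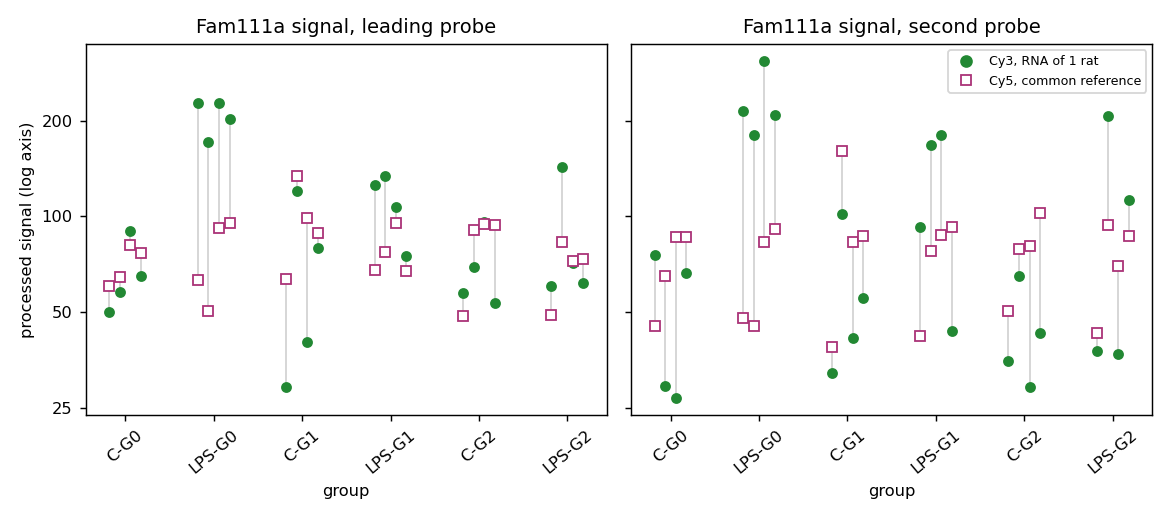
Processed signal (log axis) in Cy3 (filled circles, RNA of 1 rat) and Cy5 (open squares, common reference) of both Fam111a probes on each array, joined by a line. Cy3 lies far above Cy5 on the LPS-G0 arrays, and Cy5 of the leading probe has group means between 69.5 and 96.4.

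A probe counts here as detected where Feature Extraction marked its Cy3 signal as well above background. The leading probe was detected on 4 of 4 arrays in LPS-G0 and LPS-G1 and on 3 of 4 in LPS-G2, against 1 in C-G0, 1 in C-G1 and 2 in C-G2. This split followed the slide as well as the treatment. On slides 1 and 2 it was detected on 7 of 8 LPS arrays and 0 of 8 control arrays. On slide 3, where more probes were detected (median 13532 per array, against 11202 and 10562 on slides 1 and 2), it was detected on 4 of 4 LPS and 4 of 4 control arrays. Detection of the second probe reached 9 of 12 LPS arrays and 1 of 12 control arrays, C-G0 replicate 4 on slide 3. Most control values are thus readings of dim spots, and their differences carry that error.

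On the diet without beta-glucan, the LPS-injected rats were higher by 1.63 on the log2 scale on the leading probe (SE 0.29, 3.09-fold) and by 2.43 on the second probe (SE 0.50). Without both arrays of conflicting labels the difference on the leading probe was 1.93. From raw signals with normexp background correction, an offset of 50 and a new loess normalization, all changed together, it was 0.75. Of all probes, 3.69% had every LPS-G0 array above every C-G0 array. In the fit over all 24 arrays with limma, 0 of 10708 probes (0%) passed an adjusted p of 0.05 in this comparison, while 729 were higher and 482 lower at an unadjusted p under 0.05 (6.81% and 4.5% of all probes tested).

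The differences between LPS and control rats on the beta-glucan diets used none of the arrays on which the gene had been chosen. Their limma SEs, intervals, p-values and ranks did, as the fit takes its spread from all groups, C-G0 and LPS-G0 included. The exact permutation tests did not. With only the 16 arrays of the beta-glucan diets in the fit, LPS-G1 minus C-G1 had an SE of 0.31 (limma, adjusted p = 0.895). The mean over both diets then had an SE of 0.22 (limma, adjusted p = 0.893). LPS-G1 exceeded C-G1 by 1.18 on the leading probe (SE 0.29, 95% confidence interval 0.59 to 1.78, 2.27-fold), with every LPS-G1 array above every C-G1 array. This did not pass the limma test over all probes (adjusted p = 0.95, unadjusted p = 0.000444). By unadjusted p the probe was number 3 of 10708, and limma called 1 probe (0.00934%) in that comparison, another than Fam111a. The exact permutation test of this probe alone gave p = 0.0286 (two-sided, the smallest that 4 against 4 arrays allow) and 0.114 after Benjamini-Hochberg adjustment over the 4 pairwise comparisons made in this way. For 1.33% of probes, all LPS-G1 arrays were above all C-G1 arrays. With normexp, offset and loess the difference was 0.43. The leading probe passed the filter on dim probes through LPS-G0 and LPS-G1, the groups in which it was high.

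LPS-G2 exceeded C-G2 by 0.43 on the leading probe, with a 95% interval of -0.16 to 1.03 (limma, adjusted p = 1; exact permutation test, two-sided, p = 0.229). Here 2 of 4 LPS-G2 arrays were above every C-G2 array, and with normexp, offset and loess the difference was 0.15. Averaged over the G1 and G2 diets, the difference between LPS and control rats was 0.81 (SE 0.20, 95% interval 0.39 to 1.23; limma, adjusted p = 0.949, unadjusted p = 0.000619, number 2 of 10708 probes). An exact permutation test within diets, chosen after the values were seen, gave p = 0.00653 for this mean. With normexp, offset and loess the mean was 0.29. The effect of LPS was smaller on G2 than on G1 by 0.75, with a 95% interval from -1.59 to 0.10, and this difference between diets did not pass the test (limma, adjusted p = 1, unadjusted p = 0.0797). With normexp, offset and loess it was -0.28. In the mean over the diets limma called 0 of 10708 probes (0%), while 242 were higher and 117 lower at an unadjusted p under 0.05 (2.26% and 1.09%). In LPS-G2 against C-G2 it called 0 (0%), with 63 higher and 54 lower at an unadjusted p under 0.05.

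The second probe passed the filter only through LPS-G0, the group in which it was highest and on which the gene was chosen, so its values on the beta-glucan diets are no separate support. It gave 1.20 for LPS-G1 against C-G1 (95% interval 0.16 to 2.24; limma, adjusted p = 0.95; exact permutation test, p = 0.143) and 0.98 for LPS-G2 against C-G2 (95% interval -0.06 to 2.02; limma, adjusted p = 1; exact permutation test, p = 0.114). Its mean over both diets was 1.09 (95% interval 0.36 to 1.83; limma, adjusted p = 0.949). On this probe the difference between the diets was 0.21 rather than 0.75, with LPS on G2 again the smaller (95% interval -1.68 to 1.25). In C-G1 and C-G2 it was not detected on any array. In Cy3 alone, by mean normalized log2 signals, LPS-G1 was 2.18-fold higher than C-G1. LPS-G2 was 1.88-fold higher than C-G2, with C-G2 signals raised to the lowest signal well above background where they lay below it. Both folds include dim LPS arrays at their measured value, so they are not lower bounds. For C-G1 the measured signals lay above the lowest signal well above background of each array, so 2.18 is the measured fold.

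**Figure D3:**
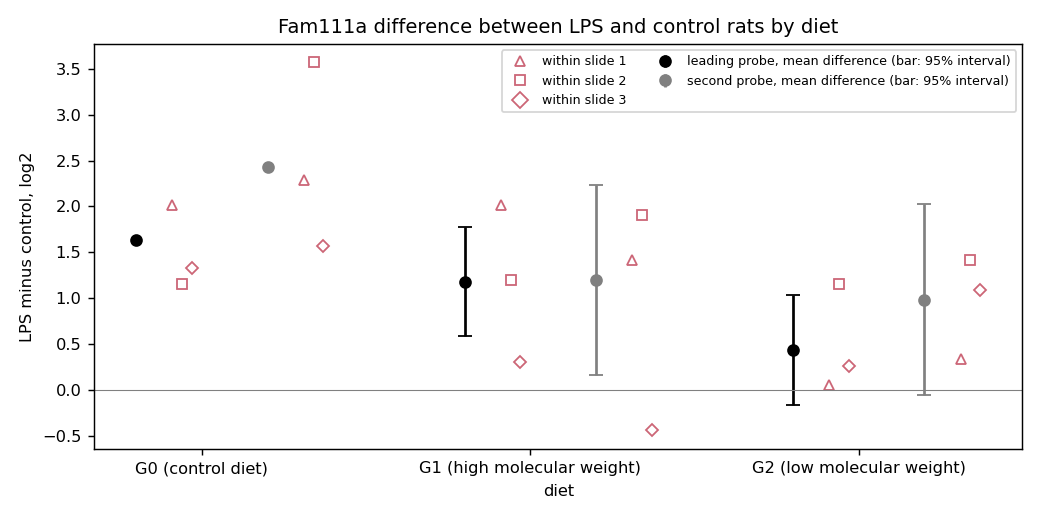
Difference in log2 ratio between LPS and control rats on each diet for the leading (black) and second (grey) Fam111a probe, with the difference within each slide as open symbols. Bars are 95% confidence intervals, given only for G1 and G2, since the gene was chosen on G0; the mean on the leading probe goes from 1.63 on G0 to 1.18 on G1 and 0.43 on G2.

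Among LPS-injected rats, both beta-glucan groups were below LPS-G0. On the leading probe LPS-G1 minus LPS-G0 was -1.0 and LPS-G2 minus LPS-G0 was -1.29 (SE 0.29 each), and on the second probe these differences were -1.26 and -1.71 (SE 0.50 each). All 3 comparisons with LPS-G0 share its 4 arrays, which were those that led to the choice of the gene, so no test was made. With normexp and loess, the differences of LPS-G1 and LPS-G2 from LPS-G0 on the leading probe were -0.49 and -0.63. Between both beta-glucans in LPS rats, LPS-G2 minus LPS-G1 was -0.29 with a 95% interval of -0.89 to 0.30 (limma, adjusted p = 0.811; exact permutation test, p = 0.343).

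Among control rats, C-G1 was 0.55 below C-G0 on the leading probe and C-G2 was 0.10 below it, in groups that overlapped. C-G2 minus C-G1 was 0.45 on the leading probe, with a 95% interval of -0.14 to 1.05 (limma, adjusted p = 0.386; exact permutation test, p = 0.257). On the second probe the same difference was -0.24, so its direction was not settled by these probes.

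Slide did not separate the groups, since each slide held arrays of all 6. Within slides, LPS minus control on the leading probe was positive in 3 of 3 slides on every diet. It was 2.02, 1.16 and 1.33 on slides 1 to 3 on G0, 2.01, 1.20 and 0.31 on G1, and 0.06, 1.16 and 0.26 on G2. The smallest difference was thus on slide 2 for G0, on slide 3 for G1 and on slide 1 for G2. Slide 3 was the only slide on which control readings of the leading probe were detected. The differences there were 1.33 on G0, 0.31 on G1 and 0.26 on G2. On slides 1 and 2 every control reading was dim. The second probe was positive in 3 of 3 slides on G0 and G2 and in 2 of 3 on G1, with -0.44 on slide 3. Most of these values compare 1 array with 1.

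Genes whose log2 ratio moved most like that of Fam111a were sought among 10707 other probes. Over the 24 arrays the second Fam111a probe was first (Pearson's r 0.75), but after group means were subtracted its r was 0.26. The 10 genes with the highest r were Lmbr1 (0.71), Prcc, Lca5, Ackr4, Chd3, Pias4, Insl3, Fbxw5, Phb1-ps1 and Ivd (0.65). Ackr4 is a scavenging chemokine receptor, Chd3 a chromatin remodeling ATPase, Pias4 a SUMO ligase and Ivd an enzyme of leucine breakdown. Their group means were highest in LPS-G0, as for Fam111a, but their spans were narrower. Lmbr1 went from -0.51 in C-G1 to 0.26 in LPS-G0, and Pias4 from -0.26 to 0.27. Their order of groups differed as well. In all of them but Phb1-ps1 the LPS-G1 mean lay at or below that of C-G0, as for Lmbr1 (-0.33 against -0.24) and Chd3 (-0.20 against -0.05). For Fam111a the LPS-G1 mean lay above that of C-G0. An r above 0.5 was found for 6.4% of named probes, while these 10 genes are by choice the highest among 8213 named probes. Arrays within a group share treatment and diet, and arrays on a slide share their hybridization.

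The 5 genes with the lowest r were Wdr1 (-0.76), Ece1, Anxa11, Gnai2 and Grk6 (-0.70). Wdr1 promotes the disassembly of actin filaments, Gnai2 is an inhibitory G protein subunit and Grk6 is a kinase that desensitizes receptors. Of the 10 genes most like Fam111a, 4 remained among the first 10 when the 2 LPS-G0 arrays farthest from the median (replicates 1 and 2) were left out, and 0 remained when deviations from the group means were used. By those deviations the first 5 were Mrpl21 (0.68), Clasp2, Fzd10, Stat6 and Tmem154 (0.62).

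**Figure D4:**
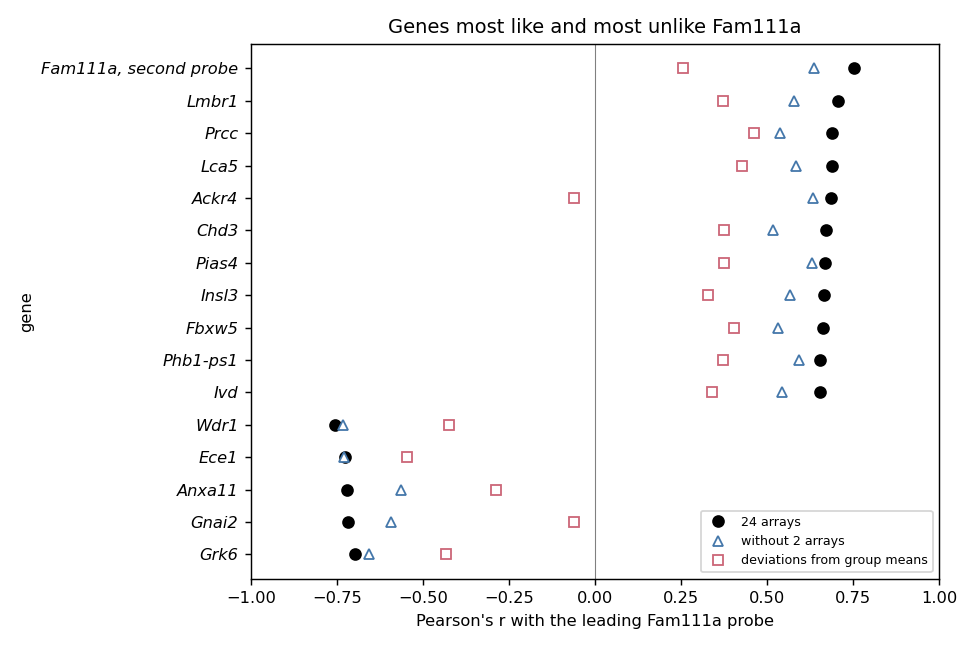
Pearson's r with the leading Fam111a probe for its second probe, the 10 genes with the highest and the 5 with the lowest r over 24 arrays (filled circles), without the 2 arrays farthest from the median (triangles) and for deviations from group means (squares). For the second Fam111a probe r is 0.75 over 24 arrays and 0.26 for deviations.

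For the partners of FAM111A at the replication fork, no difference between LPS and control rats passed the test. Pcna, the clamp that FAM111A binds, was detected on 24 of 24 arrays and differed by 0.08 between LPS-G0 and C-G0 (SE 0.22), and its r with Fam111a was -0.23. Rfc1, the large subunit of the clamp loader, differed by -0.23 (SE 0.25, r -0.21). Averaged over the G1 and G2 diets, the effect of LPS was -0.15 for Pcna and 0.03 for Rfc1 (limma, adjusted p = 0.949 and 0.997). Of 33 replication fork genes, 17 were tested, and 0 passed a limma adjusted p of 0.05 in either direction or an unadjusted p under 0.05 in LPS-G0 against C-G0 or in the mean LPS effect. Of 22 genes that repair protein crosslinks and stalled forks, 8 were tested and 0 passed the adjusted threshold, with medians of -0.02 and 0.09 in those comparisons. At an unadjusted limma p under 0.05, 1 of 8 (Brca2, -1.0) was lower in LPS-G0 than in C-G0, where 4.5% of all probes tested were. In that comparison 0 were higher, and in the mean LPS effect 0 passed in either direction. The mitosis list (8 of 17 tested) had medians of 0.25 and 0.24, against 0.02 for all probes tested in both comparisons. Again 0 passed the adjusted threshold. In each, 1 of 8 was higher at an unadjusted limma p under 0.05, where 6.81% and 2.26% of all probes tested were. Above 0 were 8 of 8 and 6 of 8 (52.9% and 54.8% of all probes tested were). In LPS-G1 and LPS-G2 minus LPS-G0, 0 of 8 were above 0 (56.2% and 47.6% of all probes tested were). The r of its tested genes with Fam111a was between 0.19 for Cdc20 and 0.51 for Cdk1. These r values include the arrays on which Fam111a was chosen, and a link was not tested.

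Interferon-induced and antiviral genes (18 of 26 tested) had mostly values below 0 where those of Fam111a were above 0. In the mean LPS effect on the G1 and G2 diets, 3 of the 18 were above 0 (54.8% of all probes tested were), the median was -0.32, and 5 were lower at an unadjusted limma p under 0.05 (1.09% of all probes tested were), namely Ifit3, Ifit2, Isg15, Oasl2 and Eif2ak2, with 0 passing the adjusted threshold. In LPS-G0 against C-G0 their median was -0.15. Their r with Fam111a was between -0.45 for Mx1 and 0.26 for Irf7.

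Among trypsin-like serine proteases, the family of the FAM111A protease domain, 5 of 8 tested were higher in LPS-G0 than in C-G0 at an unadjusted limma p under 0.05 (6.81% of all probes tested were), with 0 passing the adjusted threshold. In the mean LPS effect on the G1 and G2 diets, 3 of the 8 were above 0 and 0 passed an unadjusted p under 0.05, with a median of -0.0047. Those higher in LPS-G0 at that unadjusted threshold were the granzymes Gzma, Gzmb, Gzmc, Gzmk and Gzmm, with differences from 0.82 to 1.35. Cytotoxic lymphocytes use granzymes to kill target cells. The other proteases tested, Cfd, Htra2 and Cma1, differed by -0.31, 0.13 and -0.03 between LPS-G0 and C-G0. Gzma, Gzmb and Gzmk are also on the marker list of cytotoxic T and NK cells, so the counts of both lists are not separate. In the same comparison the marker list of cytotoxic T and NK cells was higher in 9 of 9 genes tested (8 at an unadjusted p under 0.05), with a median of 0.94, where 52.9% and 6.81% of all probes tested were and their median was 0.02. In the mean LPS effect on the G1 and G2 diets, 5 of the 9 were above 0, with a median of 0.03. That mean joins unlike diets. With LPS, 8 of the 9 were higher on G1 (54.3% of all probes tested were), with a median of 0.10. On G2, 3 of the 9 were higher (52.8% of all probes tested were), with a median of -0.05. The level of this list, as the mean log2 ratio of its tested genes, ranged from -1.5 to -0.06 in C-G0 and from -0.04 to 0.54 in LPS-G0. Its ranges in these groups thus lay apart by a narrow gap. Fam111a was chosen on these groups and the list with earlier results known, so no link is drawn from both separating here. On the G1 diet the list ranged from -0.54 to 0.43 in C-G1 and from -0.22 to 0.40 in LPS-G1. These ranges overlapped, as did those of the second Fam111a probe, while those of the leading probe did not. On the G2 diet the list ranged from -0.29 to 0.27 in C-G2 and from -0.38 to 0.03 in LPS-G2. Over the 24 arrays the r of this list with Fam111a was 0.26. Of the 10 listed markers, Ncr1 was dim.

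The other cell lists had r values with Fam111a between -0.37 and 0.35. Neutrophil markers (4 of 8 tested) ranged from -0.15 to 0.28 in C-G0 and from -0.65 to -0.11 in LPS-G0. These 2 ranges did overlap slightly, by 1 array in each group. Of the 4 neutrophil markers, 0 were higher with LPS on G0, 0 on G1 and 2 on G2 (52.9%, 54.3% and 52.8% of all probes tested were). Erythroid markers, the only list with all 10 members tested, ranged from -1.43 to -0.08 in C-G1 and from -0.72 to 0.14 in LPS-G1. On that diet 9 of 10 were higher in LPS-G1 (54.3% of all probes tested were). In LPS-G0 against C-G0, where Fam111a differed most, 4 of 10 were higher (52.9% of all probes tested were), with a median of -0.07. On G2, 7 of 10 were higher with LPS (52.8% of all probes tested were). In the mean LPS effect on the G1 and G2 diets, 9 of 10 were above 0 (54.8% of all probes tested were), with a median of 0.33. At an unadjusted limma p under 0.05, 2 of 10 were higher in that mean (2.26% of all probes tested were), with 0 passing the adjusted threshold. The r of the erythroid list with Fam111a, 0.35, was the highest of the cell lists. Of defining blood genes, Alas2, the first enzyme of heme synthesis in red cells, and the NK gene Nkg7 were detected on 24 of 24 arrays. The part of these cell markers in the values of Fam111a was not tested.

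**Figure D5:**
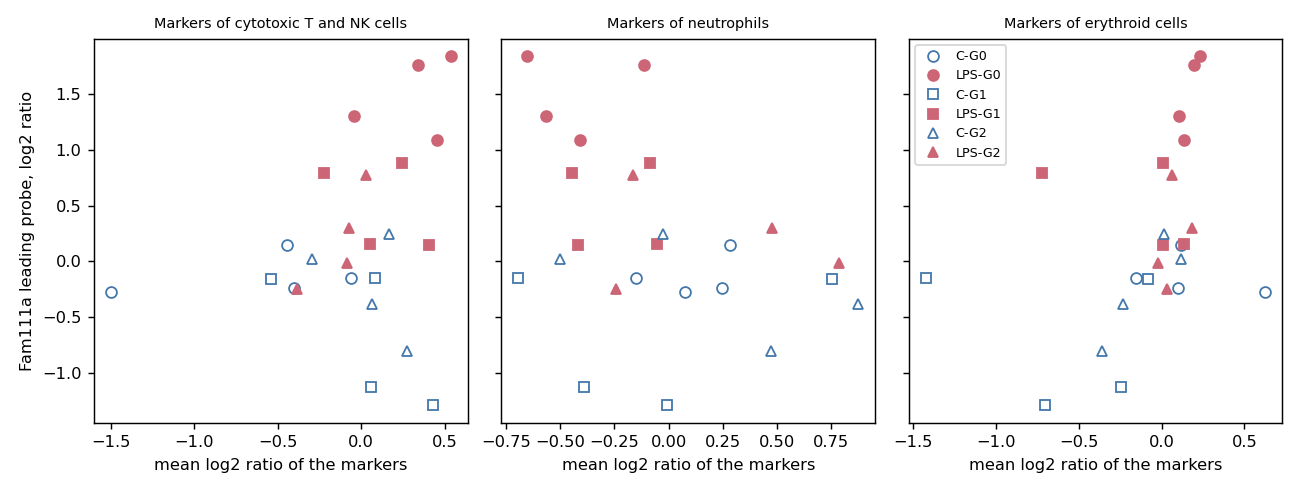
Log2 ratio of the leading Fam111a probe (vertical) against the mean log2 ratio of tested markers (horizontal) of cytotoxic T and NK cells, neutrophils and erythroid cells, 1 point per array. LPS-G0 and C-G0 arrays separate on the cytotoxic list (-0.04 to 0.54 against -1.5 to -0.06), and LPS-G1 and C-G1 arrays mix on it.

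The relatives of Fam111a were not detected. Its paralog Fam111al1 and the pseudogene Fam111a-ps1, on the same chromosome at 59005 and 139369 bases from the leading probe, were below the mark on all 24 arrays. No probe carried the symbol Fam111b. Of 29 other probes within 500 kb, 13 were for olfactory receptors, 12 were detected on 0 arrays and 4 could be tested. The closest, an unnamed probe on the opposite strand 1982 bases away, differed by 0.02 between LPS-G0 and C-G0, while the zinc finger gene Zfp91 differed by -0.22 and the leukocyte adaptor Lpxn by 0.04 (limma, adjusted p = 0.976, 0.52 and 0.959).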

How the data were processed

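Per the file headers, Agilent Feature Extraction turned scanned signals into the deposited processed intensities of Cy3 and Cy5, with background subtraction and a Lowess dye normalization per array. The headers name version 10.10.1.1 and the labels version 10.7.3.1. The deposited log10 values are the ratio of processed Cy5 over processed Cy3 signal. All 1511424 values of the deposited series table equal those of the array files.

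Ratios were turned to log2 Cy3 over Cy5, spots with outlier flags were left out (679 to 1133 per array), and spots of a probe were averaged. No normalization was added. Probes well above background in Cy3 on 4 of 4 arrays of at least 1 group were tested, 10708 of 30367, with 1 group-means model over the 24 arrays in limma 3.58.1 (R 4.3.3), two-sided, with Benjamini-Hochberg adjustment over all probes tested and a threshold of 0.05. The number of probes above that mark ranged from 7786 to 15385 over the arrays. With 4 arrays a group, the number of arrays limits the precision. Exact permutation tests of the leading probe used all 70 arrangements of 4 against 4 arrays, and 4900 within diets. Folds in Cy3 alone compare group means of normalized log2 Cy3. Each array of the dim group enters with the higher of its own signal and the lowest signal well above background. The leading probe is the Fam111a probe with the lowest p in LPS-G0 against C-G0. Named genes are the 10 with the highest and 5 with the lowest Pearson's r with it, the 5 with the highest r of deviations from group means, genes within 500 kb on rn4, and from the pathway lists Pcna, Rfc1 and any member passing the adjusted test (0 did). Other list members were named after their values were seen. Skipped were 4 probes without a gene symbol that ranked above the tenth gene. Symbols were updated from RefSeq (GRCr8), by accession or gene number. Fam111a and all gene lists were chosen with earlier results of these data known. Of 176 list entries, 109 were tested, 65 were dim and 2 were not matched to a probe.

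Log ratios were simulated from these means and variances (LPS-G1 minus C-G1, 10676 probes, 200 of them changed). On them the test recovered 64% of probes changed 2-fold and 98% of those changed 4-fold, and called 8 unchanged probes. In the measured comparison limma called 1 probe, another than Fam111a. The shares hold for 200 changed probes of mixed variance, so they do not give the chance of calling Fam111a. Alternatives changed 1 choice at a time, except that normexp background correction came with an offset of 50 and a loess normalization: background correction and normalization together, channel, outlier flags, filter, slide, replicate block, variance trend, array weights, left-out arrays, Tukey's test, source of values, arrays in the fit and label conflict. The second probe, the permutation within diets and the Cy3 folds against dim groups were added after seeing the data. Where another filter would have dropped the leading probe, it was kept in. Replicate numbers in the titles run from 1 to 4 in every group, and correlations of deviations between arrays of the same number were between -0.21 and 0.52. On each diet, LPS and control arrays of the same number shared a slide. Their mean correlations were 0.11, 0.22 and 0.17 on G0, G1 and G2, against -0.04, -0.07 and -0.05 for different numbers. The main fit did not use them as pairs, and slide and replicate block were alternatives.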

Additional observations from a re-analysis of the deposited data

Results flagged for a closer look

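On the second Fam111a probe, LPS-G1 replicate 4 was at -1.09 while the other 3 LPS-G1 arrays were between 1.05 and 1.14, a gap large enough to set it apart from its group by Dixon's criterion. The same array was at 0.15 on the leading probe, the lowest of LPS-G1 but close to replicate 3 at 0.16. It was not well above background in Cy3 on the second probe. Of 12 groups examined (2 probes in 6 groups), 1 held such an array, and chance sets apart about 1 in 20.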

How the results depend on the processing

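With normexp and loess in place of the deposited ratios, LPS-G0 minus C-G0 was 0.75, LPS-G1 minus LPS-G0 was -0.49, LPS-G2 minus LPS-G0 was -0.63, LPS-G1 minus C-G1 was 0.43, LPS-G2 minus C-G2 was 0.15, the mean LPS effect on the G1 and G2 diets was 0.29 and the difference between diets was -0.28. These fits changed background correction, offset and normalization together. The second probe turned C-G2 minus C-G1 to -0.24 and gave 2.43 for LPS-G0 minus C-G0 and -0.029 for C-G1 minus C-G0. The study's methods name Tukey's test after a one-way model over the groups: on the leading probe alone, with no adjustment over probes, it gave p = 0.0119 for LPS-G1 minus C-G1 (1.18), where the exact permutation test gave 0.0286. The limma adjusted p of that comparison was between 0.188 and 1 over its other alternatives. Tukey's test was not run for the mean and the difference of LPS effects, which are not pairs of groups. For the mean LPS effect (0.81), the exact permutation within diets gave p = 0.00653, and limma's adjusted p was between 0.517 and 1. Of the 10 genes most like Fam111a, 4 were shared with Spearman's rank correlation, 4 without the 2 farthest arrays and 0 by deviations from group means.

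With single arrays left out, LPS-G0 minus C-G0 was between 1.52 and 1.77, LPS-G1 minus LPS-G0 between -1.14 and -0.89, LPS-G2 minus LPS-G0 between -1.49 and -1.14, LPS-G1 minus C-G1 between 0.98 and 1.36, LPS-G2 minus C-G2 between 0.24 and 0.59, LPS-G2 minus LPS-G1 between -0.48 and -0.14, C-G2 minus C-G1 between 0.25 and 0.65, C-G1 minus C-G0 between -0.73 and -0.35, the mean LPS effect between 0.71 and 0.90 and the difference between diets between -0.94 and -0.54. C-G2 minus C-G0 ran from -0.26 to 0.09 and changed sign without C-G2 replicate 4, and it was 0.026 with the Cy3 channel alone. No tested comparison passed the adjusted threshold in any of these fits.

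With the replicate block, LPS-G1 minus C-G1 kept its 1.18 (limma, adjusted p = 0.831), the mean LPS effect its 0.81 (adjusted p = 0.786), and the block changed no call. The filter on detection in all 24 arrays was not run, as neither probe passes it. Apart from the changes named here, the alternatives kept direction and side of the threshold, and the causes of these shifts were not tested. Dim spots limit the control values: 8 of 12 control readings of the leading probe were not well above background.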
